A study of Mus musculus with 2 samples.

Results

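Collagens are the proteins from which animals build most of their extracellular matrix. All genes whose symbol has the form of a collagen chain, Col followed by the type number, the letter a and the chain number, were taken from the gene list of the count tables. The rule found 44 of 52550 gene identifiers. Of these 44, 8 are fibrillar, 7 are cartilage-type, 8 are basement membrane collagens and 21 fall outside these groups. At least 1 molecule was counted for 41 of them in the cells that passed the filters, and 21 had at least 100.

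The RNA came from wild-type CD1 embryos at embryonic day 10.0, from which the posterior second heart field (pSHF) and the heart tube were microdissected together. The second heart field (SHF) is the mesoderm behind and below the tube that keeps adding cells to it. About 80 embryos were pooled for each of 2 libraries, made by Drop-seq on separate occasions, so each group below has n = 2 and no treated, mutant or other-stage sample was compared. Drop-seq captures polyadenylated RNA on barcoded beads, and each captured molecule counts once as a unique molecular identifier (UMI). Since both tissues share a tube, position in the embryo is not recorded, and a cell's origin is known only through its marker genes.

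A collagen molecule is a triple helix of chains. Fibrillar collagens such as types I, II, III and V pack into banded fibres that give mesenchyme, tendon and cartilage their strength. Type IV chains link into the sheet that underlies every epithelium and endothelium, and types XV and XVIII sit at the margin of that sheet. Other members coat fibrils, form beaded filaments, or span the cell membrane. In the embryonic heart the matrix between myocardium and endocardium carries such molecules, and the epicardium is known as a later source of fibroblasts.

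The cells were sorted into classes by clustering on genes that included no collagen. A class took a name with the suffix "-like" where at least 3 of its markers were raised and the further naming rules given below were met. The 3864 cells kept in replicate 1 and the 4743 in replicate 2 carried 11166115 and 12825780 UMIs, with medians of 1375.5 and 1503.0 per cell. Of the 12 named classes, 5 bear most on the heart: 972 SHF progenitor-like, 441 cardiomyocyte-like, 646 epicardial-like, 395 endocardial or endothelial-like and 631 pharyngeal or limb mesenchyme-like cells. The defining markers were present, with cardiomyocyte markers summing to 22980 and 33900 UMIs per 1000000 UMIs of the class (CPM) in cardiomyocyte-like cells, and SHF progenitor markers to 1050 and 1141 CPM in SHF progenitor-like cells. The libraries shared 82 barcodes, none of them among the kept cells. Macrophage or myeloid markers were at 6.18 CPM or below in every named class.

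Stretches before the RefSeq starts of the 2 most abundant members, Col3a1 and Col1a2, are shown first because these genes make up much of the fibrillar signal yet part ways in neural crest-like cells. Both stretches lie before the RefSeq start on GRCm38.p6, on the plus strand, and capitals mark matches to a searched motif. The Col1a2 stretch is chr6:4505370-4505492, 248 to 126 bases before the start. The bases next to the start are left out because GENCODE M21 annotates exon sequence there, and since that annotation starts Col1a2 at 4504814, the stretch lies inside the gene's span in it. The Col3a1 stretch is chr1:45311288-45311537, the 250 bases up to the start.
Col1a2: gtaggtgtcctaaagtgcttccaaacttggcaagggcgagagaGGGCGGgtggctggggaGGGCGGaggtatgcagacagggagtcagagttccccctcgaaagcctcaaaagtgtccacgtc
Col3a1: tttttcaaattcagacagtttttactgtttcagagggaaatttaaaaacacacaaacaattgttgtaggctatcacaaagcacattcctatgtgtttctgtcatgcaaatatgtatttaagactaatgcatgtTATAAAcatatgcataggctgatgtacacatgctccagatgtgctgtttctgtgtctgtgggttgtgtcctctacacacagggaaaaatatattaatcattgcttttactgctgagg
Searched on both strands were the TATA box written as TATAAA, the CCAAT box written by its name, and the GC box written as GGGCGG. No match overlaps another. The Col1a2 stretch holds the GC box string at 2 places, and 13.3% of 32851 promoter stretches of that length hold it at least at 1. The Col3a1 stretch holds the TATA box string at 1 place, and 12.4% of promoter stretches of its length hold it. The remaining strings were not found in these stretches. A promoter entry was found for 35 of the 44 members.

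Collagen RNA was a small part of all RNA, 11006 UMIs or 0.0986% in replicate 1 and 13388 or 0.104% in replicate 2. Fibrillar collagens took 49.5% and 44.1% of these collagen UMIs, basement membrane collagens 28.5% and 29.7%, cartilage-type 11.9% and 15.5%, and the others 10.1% and 10.8%. A few genes carried most of it: Col3a1 (4406 UMIs), Col1a2 (3602) and Col18a1 (3232) together made 46.1%. The next were Col4a1 (2077), Col2a1 (1677), Col1a1 (1466), Col4a2 (1152), Col26a1 (1121) and Col5a2 (1041).

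The share of a class's UMIs that was collagen differed widely between classes. Paraxial mesoderm-like cells had the highest mean, 0.186% ± 0.0551 (SD, n = 2), followed by endocardial or endothelial-like (0.164% ± 0.0166), epicardial-like (0.155% ± 0.0303) and pharyngeal or limb mesenchyme-like cells (0.146% ± 0.00382). The paraxial values, 0.224% and 0.147%, spanned or overlapped those of the other 3 classes. The epicardial-like share depended on how the classes were formed: it was 0.0910% with doublet-scored cells kept and 0.0986% with another random set of genes used for clustering. Cardiomyocyte-like cells stood at 0.0969% ± 0.0152 and SHF progenitor-like cells at 0.0854% in both libraries. Neural tube-like (0.0384% ± 0.00234) and hepatoblast-like cells (0.0343% ± 0.00434) were low, and erythroid-like cells had 0.00453% ± 8.7e-05. Barcodes with 10 to 200 UMIs, too few to be counted as cells, held 5 collagen UMIs of 8713 in replicate 1 and 41 of 55494 in replicate 2.

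**Figure D1:**
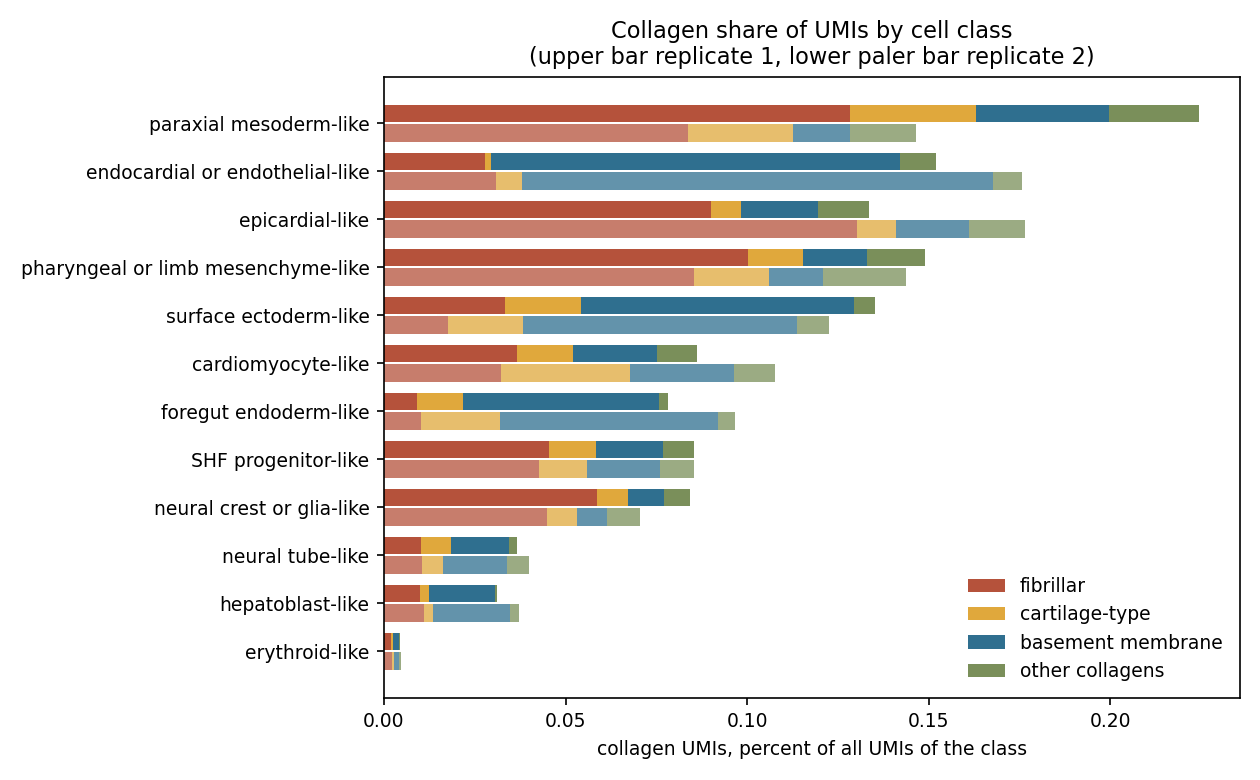
Collagen UMIs as a percentage of all UMIs (horizontal axis) in each of 12 cell classes (vertical axis), with 1 bar per library divided by collagen group. Paraxial mesoderm-like cells reach 0.224% in replicate 1, erythroid-like cells stay at the foot of the scale, and basement membrane collagens fill most of the bar in endocardial or endothelial-like, foregut endoderm-like and surface ectoderm-like cells.

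The make-up differed as much as the amount. Basement membrane collagens made 74.1% and 73.9% of the collagen UMIs of endocardial or endothelial-like cells, 69.1% and 62.0% in foregut endoderm-like cells and 55.7% and 61.4% in surface ectoderm-like cells. Fibrillar collagens made 67.5% and 73.8% in epicardial-like cells, 67.2% and 59.4% in pharyngeal or limb mesenchyme-like cells and 69.6% and 63.7% in neural crest or glia-like cells. Cardiomyocyte-like cells were the most mixed of the heart classes, with 42.6% and 29.8% fibrillar, 18.0% and 33.0% cartilage-type and 26.9% and 26.8% basement membrane collagen.

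Of the 44 members, 23 passed the filter on low counts, and each passed through the classes in which it was high. That all 23 were called higher in at least 1 class than in the mean log level of the other classes (edgeR quasi-likelihood test, adjusted p under 0.05) is therefore only a description; 70.5% of all 5701 genes tested were. The mean includes erythroid-like cells, in which 15 of the 23 were lower than elsewhere, and 21 of 22 tested passed without that class. Only Col15a1 and Col27a1 were higher in exactly 1 class, and the other 21 in 2 or more.

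By class, epicardial-like cells had the most higher collagens, 13 of 23, where 10.3% of all genes tested were higher, and 1 was lower (1.63% of all genes). Cardiomyocyte-like cells had 10 higher (18.8%) and 1 lower, Col26a1 (11% of all genes). Paraxial mesoderm-like cells also had 10 higher (6.33%) and 1 lower (1.98%). Endocardial or endothelial-like cells had 9 higher (15.7%) and 1 lower (6.77%), and pharyngeal or limb mesenchyme-like cells 9 higher (5.05%) and 1 lower (0.947%). The epithelial classes followed, foregut endoderm-like cells with 8 higher (14.3%) and 4 lower (5.88%) and surface ectoderm-like cells with 6 higher (8.33%) and 1 lower (3.26%). SHF progenitor-like cells had 5 higher (10.9%), namely Col3a1, Col5a2, Col9a1, Col23a1 and Col26a1, and 1 lower, Col4a2 (3.65%). Neural crest or glia-like cells had 4 higher (8.67%) and 3 lower (4.47%). Hepatoblast-like cells had 1 higher (7.91%) and 8 lower (4.56%). Neural tube-like cells had 4 lower (3.79%) and erythroid-like cells 15 lower (26.1%), and in both no collagen was called higher, where 8.58% and 24.5% of all genes were.

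**Figure D2:**
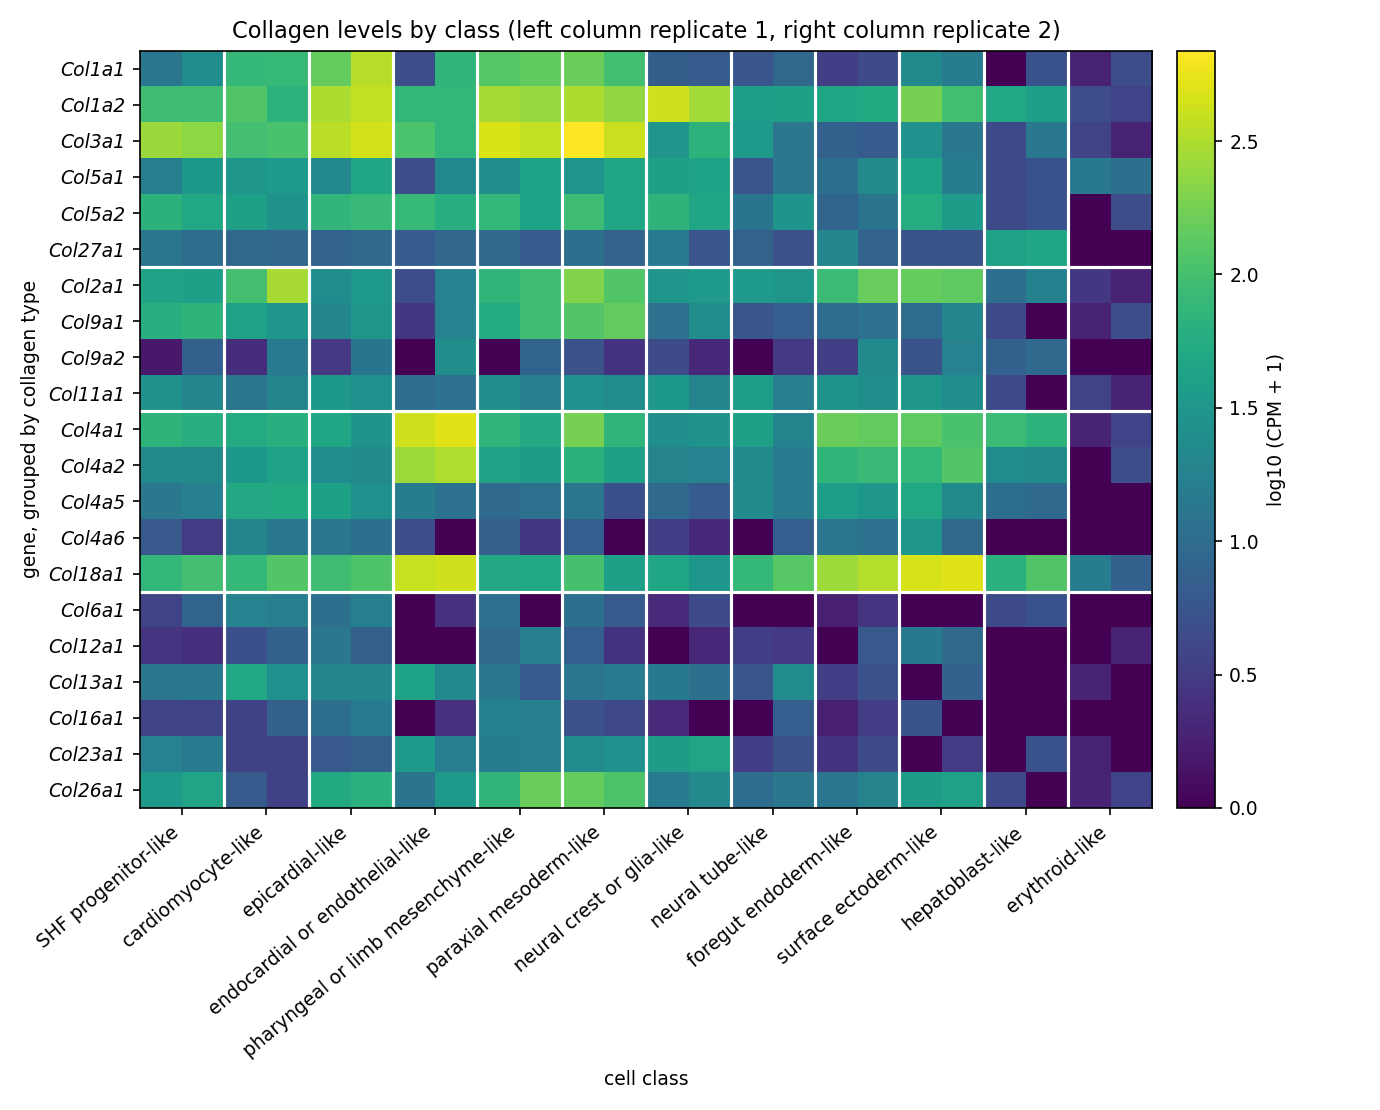
Level of each collagen with at least 100 UMIs (vertical axis, grouped by type) in each of 12 classes and 2 libraries (horizontal axis), on a log10 colour scale of CPM + 1. Bright cells gather in Col1a1, Col1a2 and Col3a1 for the mesenchymal classes and in Col4a1, Col4a2 and Col18a1 for endothelium-like and epithelium-like classes.

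Among the fibrillar genes, Col3a1, which encodes the homotrimer of type III collagen found with type I in soft tissues, was highest in paraxial mesoderm-like cells, at 688 CPM in replicate 1 and 409 CPM in replicate 2. Pharyngeal or limb mesenchyme-like cells had 481 and 373 CPM, epicardial-like 346 and 450 CPM, and SHF progenitor-like 259 and 226 CPM. The first 3 overlapped between libraries, and each of them lay above the SHF progenitor-like cells in both libraries. Cardiomyocyte-like cells had 96.6 and 106 CPM. Against the other classes the log2 difference in paraxial mesoderm-like cells was 3.57 ± 0.15 (SE, adjusted p = 3.32e-22).

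Col1a2, a chain of type I collagen, had its highest levels in neural crest or glia-like cells (427 and 279 CPM) and epicardial-like cells (310 and 373 CPM), which overlapped. Paraxial mesoderm-like (308 and 231 CPM) and pharyngeal or limb mesenchyme-like cells (286 and 249 CPM) were next. SHF progenitor-like cells had 89.7 and 89.3 CPM. A Col1a2 UMI was seen in 46.9% and 44.1% of neural crest or glia-like cells, against 1.27% and 2.06% of erythroid-like cells, whose median depth in replicate 1 was higher (3482.5 against 1591 UMIs). In cells thinned to 1000 UMIs the shares in neural crest or glia-like cells were 33.1% and 26.0%.

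Col1a1, which encodes the other chain of type I collagen, had another order. Its mean was highest in epicardial-like cells (146 and 340 CPM), followed by pharyngeal or limb mesenchyme-like (123 and 138 CPM) and paraxial mesoderm-like cells (157 and 94.8 CPM). The paraxial range overlapped both others. Neural crest or glia-like cells had 5 UMIs in each library, 5.92 and 5.71 CPM. The class with the highest mean of Col1a2 was thus low in Col1a1, in both libraries.

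The UMI ratio of Col1a2 to Col1a1 puts this in numbers. A ratio of UMIs between genes also reflects how well each transcript's 3′ end is caught, so its change across classes is read here and not its size. It was 72.2 and 48.8 in neural crest or glia-like cells, against 2.32 and 1.81 in pharyngeal or limb mesenchyme-like, 1.96 and 2.43 in paraxial mesoderm-like, and 2.12 and 1.10 in epicardial-like cells. The Col1a2 share of the pair was 98.6% (exact 95% binomial interval 96.8 to 99.6%) and 98.0% (95.4 to 99.3%) in neural crest or glia-like cells. The highest of the 3 mesenchymal classes was 70.9% (66.2 to 75.2%), so the intervals were apart. Foregut endoderm-like cells also had few Col1a1 UMIs, 3 and 6, with ratios of 19.0 and 15.2, and SHF progenitor-like cells had ratios of 7.48 and 3.91. Cardiomyocyte-like cells had ratios of 1.5 and 0.855. Intervals cover counting error only.

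**Figure D3:**
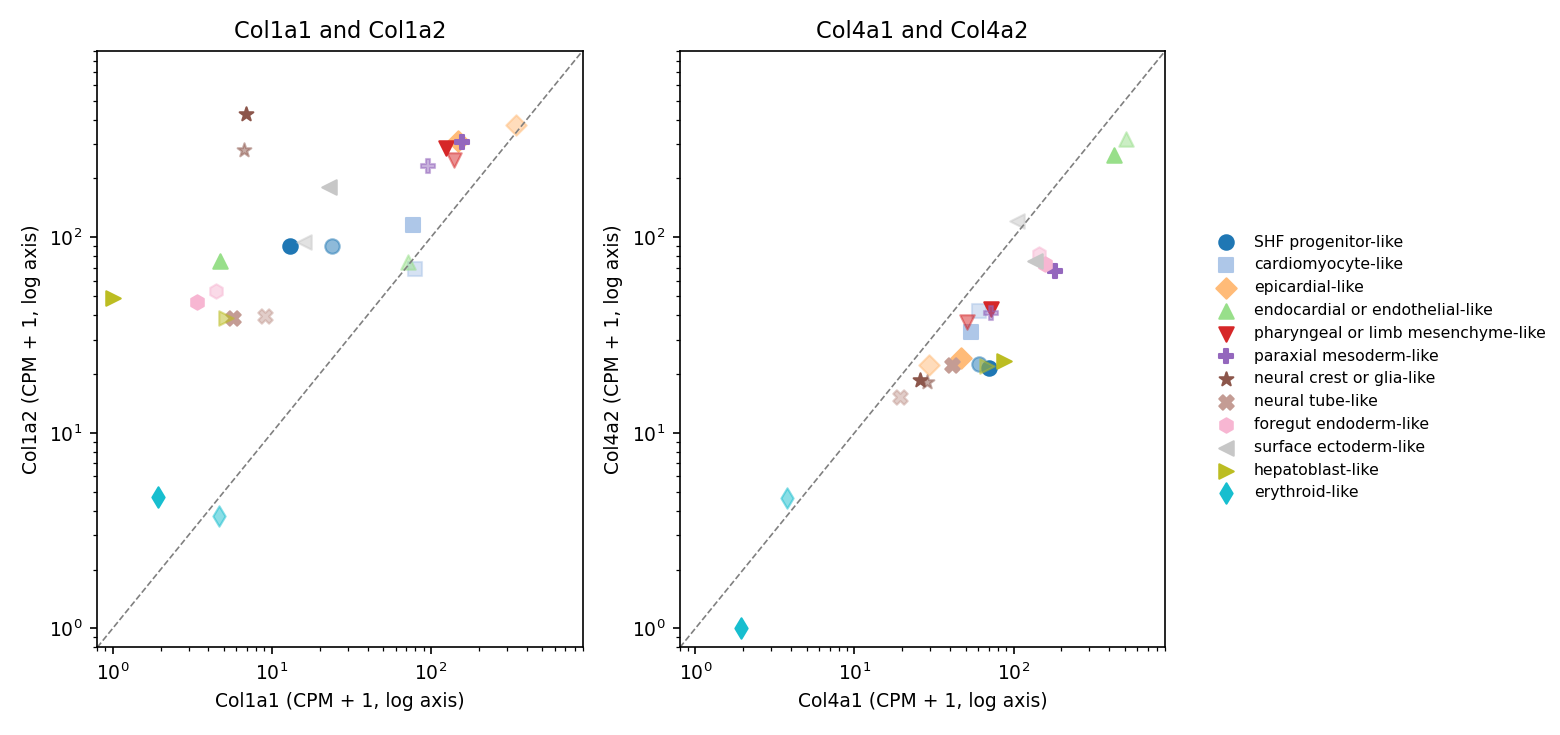
Left, Col1a2 against Col1a1, and right, Col4a2 against Col4a1, each in CPM + 1 on log axes, with 1 point per class and library, solid for replicate 1 and paler for replicate 2, and a dashed line of equality. Neural crest or glia-like cells stand far above the line in the left panel at 427 and 279 CPM of Col1a2, while in the right panel most classes lie just below the line.

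One library value in the endocardial or endothelial-like class rested on a single cell. Col1a1 was at 3.74 CPM in replicate 1 (2 UMIs) and 71.1 CPM in replicate 2 (46 UMIs), and 45 of the 46 came from 1 cell of 7721 UMIs. The same cell held 40 of the 48 Col1a2 UMIs. Without it, Col1a1 was at 1.56 CPM and Col1a2 at 12.5 CPM in that library. Of 270 values with at least 10 UMIs in a named class and library, 3 drew over 50% of their UMIs from 1 cell and 27 over 20%. The third value over 50% was Col27a1 in hepatoblast-like cells of replicate 2, at 46.1 CPM with that cell and 22.6 CPM without it.

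Col5a1 and Col5a2 encode chains of type V collagen, which starts the fibrils of type I. Col5a2 was spread over many classes, with 72.7 and 83.2 CPM in epicardial-like, 78.6 and 60.2 CPM in endocardial or endothelial-like and 65.1 and 47.9 CPM in SHF progenitor-like cells, and neighbours in its order overlapped down to neural tube-like cells (11.8 and 28.5 CPM). Col5a1 was highest in neural crest or glia-like cells (39.1 and 43.4 CPM), a range that paraxial mesoderm-like cells overlapped (30.2 and 46.6 CPM). It also had 13.0 and 10.1 CPM in erythroid-like cells (25 UMIs), a level close to that in endocardial or endothelial-like cells. Col27a1, a fibrillar chain best known from cartilage, was highest in hepatoblast-like cells at 41.4 and 46.1 CPM, followed by foregut endoderm-like cells at 19.1 and 6.88 CPM. Hepatoblast-like cells were the only class in which Col27a1 was higher than in the others, with a log2 difference of 3.01 ± 0.47 (SE, adjusted p = 3.77e-06) resting on 24 UMIs. In replicate 2 most of these UMIs came from a single cell, and the level without it, given above, was lower.

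Col2a1, the main fibrillar chain of cartilage, was highest on average in cardiomyocyte-like cells, at 99.3 CPM in replicate 1 and 293 CPM in replicate 2. Paraxial mesoderm-like (197 and 116 CPM), surface ectoderm-like (144 and 135 CPM) and foregut endoderm-like cells (84.5 and 151 CPM) came next, and all 4 classes overlapped. The signal in cardiomyocyte-like cells came from 35 of 199 and 62 of 242 cells, with at most 11 and 23 UMIs in 1 cell. The libraries differed there by more than counting error, with a ratio of replicate 2 to replicate 1 of 2.95 (2.27 to 3.89). Endocardial or endothelial-like cells had 3.74 and 17.0 CPM. A Col2a1 UMI was seen in 17.6% and 25.6% of cardiomyocyte-like cells and in 1.27% and 0.685% of erythroid-like cells.

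Col9a1 encodes a chain of type IX collagen, which decorates type II fibrils. It did not follow Col2a1 in the heart classes. Its highest level was in paraxial mesoderm-like cells (119 and 144 CPM), above every other class in both libraries, then in pharyngeal or limb mesenchyme-like (54.3 and 91.4 CPM) and SHF progenitor-like cells (58.8 and 68.6 CPM). Cardiomyocyte-like cells had 41.0 and 29.3 CPM. Col9a2, another chain of the type, differed between the libraries as a whole, with 42 UMIs in replicate 1 and 169 in replicate 2, or 3.76 and 13.2 CPM. Its calls between classes rest almost wholly on replicate 2, for example 0 and 24.7 CPM in endocardial or endothelial-like cells. Col11a1, a minor fibrillar chain that limits the width of cartilage fibrils, had means of 25.1 to 28.7 CPM in its 5 highest classes, which overlapped.

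Paraxial mesoderm-like cells were made of 2 clusters that differed in collagen. The smaller, 106 cells with Pax9 among its raised markers, had collagen shares of 0.352% and 0.262%, and the larger, 218 cells with Pax3 raised, 0.127% and 0.0822%. Col3a1 was at 1207 and 858 CPM in the smaller and at 292 and 160 CPM in the larger. Col9a1 was at 241 and 279 CPM against 24.9 and 68.8 CPM, and Col1a1 at 297 and 245 CPM against 49.8 and 11.1 CPM. These are descriptions of clusters, with no test. Median depth was 4599.5 against 2285.5 UMIs per cell in replicate 1 and 5072.5 against 4578.5 in replicate 2, and its part in these levels was not tested. Paraxial markers summed to 747 and 177 CPM in the class and mesenchyme markers to 541 and 677 CPM. In neural crest or glia-like cells the paraxial markers summed to 166 and 387 CPM. The class thus did not have the highest paraxial sum in replicate 2, and its name is less sure there.

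Col4a1 and Col4a2 encode the 2 chains of the type IV collagen found in nearly all basement membranes. They lie head to head on chromosome 8 of GRCm38, Col4a1 at 11198423 to 11312826 on the minus strand and Col4a2 at 11312805 to 11449287 on the plus strand. Both were highest in endocardial or endothelial-like cells, Col4a1 at 428 and 508 CPM and Col4a2 at 264 and 317 CPM. The next classes, foregut endoderm-like for Col4a1 (156 and 144 CPM) and surface ectoderm-like for Col4a2 (74.3 and 120 CPM), lay below every endothelial value. Of the endocardial or endothelial-like cells, 40.2% and 54.6% had a Col4a1 UMI, against 0.633% and 1.37% of erythroid-like cells.

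The pair kept closer together than Col1a1 and Col1a2. The UMI ratio of Col4a2 to Col4a1 was 0.616 and 0.623 in endocardial or endothelial-like, 0.459 and 0.566 in foregut endoderm-like, 0.6 and 0.681 in cardiomyocyte-like and 0.298 and 0.357 in SHF progenitor-like cells. Its lowest value was 0.259, in hepatoblast-like cells of replicate 1, and its highest 1.14, in surface ectoderm-like cells of replicate 2. The Col4a2 share of the pair in SHF progenitor-like cells, 22.9% (16.6 to 30.3%) and 26.3% (18.5 to 35.4%), lay below that of endocardial or endothelial-like cells, 38.1% (33.1 to 43.3%) and 38.4% (34.3 to 42.7%), with intervals that were apart in replicate 1 and overlapped in replicate 2. The gene spans overlap at their starts and the strand used in counting is not given, while the ends that Drop-seq counts lie at opposite sides.

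Col4a5 and Col4a6, which form another type IV network, had a different order. Col4a5 was highest in cardiomyocyte-like cells (50.3 and 52.3 CPM), above every other class in both libraries, and epicardial-like cells had 39.9 and 25.9 CPM. Endocardial or endothelial-like cells had 15.0 and 10.8 CPM. Col4a6 was lower, with 18.5 and 12.8 CPM in cardiomyocyte-like and 30.6 and 8.56 CPM in surface ectoderm-like cells. The 2 genes are head to head on the X chromosome with starts 1309 bases apart, and both were higher in the same 4 classes: cardiomyocyte-like, epicardial-like, foregut endoderm-like and surface ectoderm-like. The adult kidney chains Col4a3 and Col4a4 had 2 and 13 UMIs.

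Col18a1, whose end fragment is endostatin, was highest in surface ectoderm-like cells (464 and 496 CPM), then in endocardial or endothelial-like (395 and 426 CPM) and foregut endoderm-like cells (263 and 333 CPM), and these 3 did not overlap. Epicardial-like cells had 92.0 and 113 CPM. It was lower than elsewhere in erythroid-like, neural crest or glia-like, paraxial mesoderm-like and pharyngeal or limb mesenchyme-like cells. Of the 44 UMIs of its relative Col15a1, 34 were in endocardial or endothelial-like cells, at 20.6 and 35.5 CPM from 9 and 16 cells. No other named class had more than 2 Col15a1 UMIs in a library. The gene passed the filter on low counts through this class, so its level there and its calls for this class are only descriptions. Surface ectoderm markers summed to 1019 and 772 CPM in surface ectoderm-like and to 25.5 and 64.7 CPM in foregut endoderm-like cells. Foregut endoderm markers summed to 1303 and 1187 CPM in the former and to 2187 and 1917 CPM in the latter. The part of these shared markers in the Col18a1 levels was not tested.

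Of the remaining collagens, Col26a1, a short secreted collagen, was the most abundant. It was highest in paraxial mesoderm-like (145 and 110 CPM) and pharyngeal or limb mesenchyme-like cells (71.0 and 152 CPM), at 32.6 and 44.3 CPM in SHF progenitor-like cells and at 5.29 and 2.55 CPM in cardiomyocyte-like cells. The membrane-spanning collagens differed from each other. Col13a1, which is found at muscle and adhesion sites, was highest in cardiomyocyte-like cells (49.0 and 25.5 CPM) and endocardial or endothelial-like cells (43.0 and 20.1 CPM), whereas Col23a1 was highest in neural crest or glia-like cells (35.5 and 44.5 CPM) and at 2.65 and 2.55 CPM in cardiomyocyte-like cells.

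Type VI collagen forms beaded filaments from 3 chains. Col6a1 (130 UMIs) was highest in cardiomyocyte-like (17.2 and 15.3 CPM) and epicardial-like cells (10.3 and 15.7 CPM), and Col6a2 (94 UMIs) in cardiomyocyte-like cells (14.6 and 26.8 CPM). Both were called higher in these 2 classes than elsewhere and in no other. They passed the filter on low counts through cardiomyocyte-like cells, so these calls are only descriptions. Col6a3, the third chain, had 21 UMIs over all kept cells. Col12a1 and Col16a1, which coat fibrils, had their highest means in pharyngeal or limb mesenchyme-like cells, at 8.36 and 16.1 CPM and at 16.7 and 16.1 CPM. For Col12a1 this range overlapped surface ectoderm-like (13.1 and 8.56 CPM) and epicardial-like cells (12.2 and 6.28 CPM), and both were also higher than elsewhere in epicardial-like cells.

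The other members were too sparse for values by class. Col14a1 had 89 UMIs, Col22a1 75, Col9a3 66, Col25a1 51, Col8a2 46, Col7a1 33, Col8a1 27, Col11a2 23, Col5a3 and Col24a1 12 each, Col20a1 7, Col17a1 5, Col6a6 3, Col19a1 2 and Col6a4 1. Col10a1, the marker of hypertrophic cartilage, Col6a5 and Col28a1 had 0 in the kept cells. A count of 0 allows up to 3 UMIs in a library at this depth, so these genes were not detected, which does not show that they are absent.

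The first comparison set SHF progenitor-like against cardiomyocyte-like cells. SHF progenitor-like cells had more Col26a1, Col23a1, Col3a1 and Col9a1 than cardiomyocyte-like cells, and less Col2a1, Col1a1, Col4a2, Col4a5, Col4a6, Col6a1, Col6a2 and Col13a1. Of 23 collagens tested, 4 were thus higher and 8 lower, where 12.1% and 14.3% of all genes tested were (edgeR quasi-likelihood test, adjusted p under 0.05). The 8 lower include Col6a1 and Col6a2, which passed the filter on low counts through cardiomyocyte-like cells, so their calls are only descriptions. Col26a1, at 32.6 and 44.3 CPM against 5.29 and 2.55 CPM, had a log2 difference of 3.15 ± 0.50 (SE, adjusted p = 2.61e-06). Col3a1, at 259 and 226 CPM against 96.6 and 106 CPM, differed by 1.16 ± 0.21 (adjusted p = 2.57e-05). In both genes the 2 libraries of 1 class lay wholly above those of the other.

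On the other side, Col2a1 was at 42.3 and 38.6 CPM against 99.3 and 293 CPM, a log2 difference of -2.33 ± 0.27 (adjusted p = 2.21e-09). Col1a1 was at 12.0 and 22.9 CPM against 76.8 and 79.1 CPM, -2.28 ± 0.39 (adjusted p = 9.17e-06), while Col1a2, at 89.7 and 89.3 CPM against 115 and 67.6 CPM, overlapped and had an adjusted p of 0.724. Col4a5 was at 12.6 and 16.4 CPM against 50.3 and 52.3 CPM, -1.94 ± 0.31 (adjusted p = 4.39e-06). The median log2 difference of the 23 was -0.71, against 0.01 over all genes tested. Epicardial markers summed to 324 and 259 CPM in cardiomyocyte-like cells and to 128 and 184 CPM in SHF progenitor-like cells, and their part in these values was not tested.

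Over all genes tested 14.3% were lower and 12.1% higher, against which the partner lists are set here. Of 17 tested genes of collagen modification and folding, 8 were lower in SHF progenitor-like cells, among them P3h4 (log2 difference -1.57 ± 0.16), which helps modify lysines, and Serpinh1 (-0.70 ± 0.12), the collagen chaperone. In propeptide cleavage and crosslinking 3 of 5 were lower, with Pcolce, an enhancer of propeptide removal, at -1.58 ± 0.20. Of 5 collagen receptors 3 were lower, including Ddr1 (-2.60 ± 0.38) and Itgb1 (-0.93 ± 0.12). Of 11 basement membrane partners 5 were lower, with Nid2 at -2.79 ± 0.30, and 1, Lama1, was higher. In collagen breakdown Mmp2, a gelatinase, was higher by 2.18 ± 0.29 and 2 of 9 were lower. Of 10 collagen-binding matrix proteins 2 were lower, Sparc (-2.07 ± 0.23) and Fbln2 (-1.77 ± 0.49), and Dcn was higher.

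The count in this comparison depended on the cells: it was 7 with doublet-scored cells kept and 5 with cells thinned to 1000 UMIs. Col26a1, Col23a1, Col3a1 and Col2a1 kept their direction and call under every alternative in which each was tested. Col1a1 turned to 0.42 under the first clustering tried. The first clusters mixed epicardial and myocardial cells, and the part of this mixing in the Col1a1 value was not tested.

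The second comparison set pharyngeal or limb mesenchyme-like against SHF progenitor-like cells. Pharyngeal or limb mesenchyme-like cells had more Col1a1, Col1a2, Col3a1 and Col26a1, and the edgeR quasi-likelihood test called none lower. The 4 of 23 higher compare with 1.6% of all genes tested, and 1.18% were lower. At an unadjusted p under 0.05, 1 collagen, Col18a1, was lower, and DESeq2 called 3 higher and 0 lower. Col1a1, at 123 and 138 CPM against 12.0 and 22.9 CPM, differed by 2.92 ± 0.37 on the log2 scale (SE, adjusted p = 4.16e-07). Col1a2, at 286 and 249 CPM against 89.7 and 89.3 CPM, differed by 1.59 ± 0.18 (adjusted p = 2.04e-08). These 2 calls held under every alternative in which each gene was tested. Col3a1 differed by 0.82 ± 0.18 (adjusted p = 0.00253) and Col26a1 by 1.55 ± 0.26 (adjusted p = 9.83e-05). Paraxial mesoderm markers summed to 110.7 and 69.9 CPM in pharyngeal or limb mesenchyme-like cells against 14.9 and 16.4 CPM in SHF progenitor-like cells, and their part was not tested. Col16a1 and Col12a1 had large but uncertain differences of 2.45 ± 0.75 (adjusted p = 0.0695) and 2.85 ± 0.92 (adjusted p = 0.0982).

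Over all genes tested 1.6% were higher and 1.18% lower. Of 10 collagen-binding matrix proteins 6 were higher, among them Tgfbi (2.61 ± 0.36), Bgn (4.32 ± 0.85) and Lum (2.38 ± 0.60). The median over that list was 1.70. Levels of Bgn by class are not given, and with its wide SE the size of its difference is uncertain. Pcolce was the only 1 of 5 cleavage and crosslinking genes to be higher (2.08 ± 0.20). In collagen modification and folding, Serpinh1 was higher (0.58 ± 0.12) and the lysyl hydroxylase Plod2 lower (-1.22 ± 0.22) among 17. The receptor Ddr2, which binds fibrillar collagen, was higher by 1.44 ± 0.41, as were Nid1 (1.32 ± 0.38) and Timp1 (1.51 ± 0.33), 1 gene in each of their lists. The median over the 23 collagens was 0.10, against -0.02 over all genes tested. The count of collagens was 7 with cells of at least 800 genes, 8 with no filter on low counts and 2 with no library term in the model.

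The third comparison set epicardial-like against SHF progenitor-like cells, classes known by their markers and not by position. Epicardial-like cells had more Col1a1, Col1a2, Col3a1 and Col4a5 than SHF progenitor-like cells, and less Col9a1, Col23a1 and Col4a1. The 4 higher and 3 lower of 23 compare with 5.4% and 2.63% of all genes tested. Col1a1, at 146 and 340 CPM against 12.0 and 22.9 CPM, differed by 3.76 ± 0.29 on the log2 scale (SE, adjusted p = 1.53e-13). This call held under every alternative in which the gene was tested. Col1a2, at 310 and 373 CPM against 89.7 and 89.3 CPM, differed by 1.94 ± 0.15 (adjusted p = 2.34e-13). Col9a1, at 19.3 and 30.6 CPM against 58.8 and 68.6 CPM, differed by -1.37 ± 0.26 (adjusted p = 2.23e-04). Col4a5 was at 39.9 and 25.9 CPM against 12.6 and 16.4 CPM, 1.20 ± 0.31 (adjusted p = 0.00712).

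Col3a1 was higher by 0.72 ± 0.16 (adjusted p = 0.00134), but its direction turned under other ways of forming the classes, to -1.40 with doublet-scored cells kept and -1.15 with another random set of genes used for clustering. Col4a1, at -0.78 ± 0.24 (adjusted p = 0.0357), turned to 0.055 under the latter. In epicardial-like cells the epicardial markers summed to 574 and 581 CPM. Cardiomyocyte markers summed to 1010 and 1175 CPM there against 288 and 391 CPM in SHF progenitor-like cells. Mesenchyme markers summed to 493 and 568 against 203 and 252 CPM. Their part in these differences was not tested.

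Against 5.4% of all genes higher, 8 of 10 collagen-binding matrix proteins were higher, with Postn, a matricellular protein of the heart's mesenchyme, at 5.68 ± 0.43, Lum at 4.19 ± 0.43, Fbln2 at 3.45 ± 0.37 and Sparc at 2.11 ± 0.22. Of 17 genes of modification and folding 9 were higher, including P3h4 (1.52 ± 0.15), Serpinh1 (0.86 ± 0.11) and Fkbp10 (1.45 ± 0.26), and 1, Plod2, was lower. Pcolce (2.16 ± 0.17) and the crosslinking enzyme Loxl1 (2.44 ± 0.42) were the 2 of 5 higher in their list. Ddr1 (2.60 ± 0.35) and Itgb1 (0.70 ± 0.11) were the 2 of 5 receptors higher. Nid1 (1.62 ± 0.30) and Nid2 (1.88 ± 0.30) were higher and Lama1 lower (-2.02 ± 0.44) among 11 basement membrane partners, and Mrc2, Timp1 and Timp3 were higher among 9 breakdown genes. The medians were 2.20 over the matrix proteins, 0.62 over the 23 collagens and 0 over all genes tested.

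The last comparison set endocardial or endothelial-like against cardiomyocyte-like cells. Endocardial or endothelial-like cells had more Col4a1, Col4a2, Col15a1, Col18a1, Col23a1, Col26a1 and Col5a2 than cardiomyocyte-like cells, and less Col2a1, Col9a1, Col4a5, Col4a6, Col5a1, Col6a1 and Col6a2. The 7 higher and 7 lower of 23 compare with 12.8% and 11.9% of all genes tested. Col15a1 among the higher and Col6a1 and Col6a2 among the lower passed the filter on low counts through the class where they were high. Their calls are therefore only descriptions. Of the 6 basement membrane collagens tested, all were called, 4 higher, Col15a1 included, and 2 lower. Col4a1, at 428 and 508 CPM against 52.9 and 59.9 CPM, differed by 3.04 ± 0.22 on the log2 scale (SE, adjusted p = 2.16e-15). Col4a2, at 264 and 317 CPM against 31.8 and 40.8 CPM, differed by 2.96 ± 0.21 (adjusted p = 2.50e-15). Col18a1, at 395 and 426 CPM against 76.8 and 120 CPM, differed by 2.02 ± 0.20 (adjusted p = 7.01e-11).

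The opposite sign held for the other type IV chains. Col4a5 was at 15.0 and 10.8 CPM against 50.3 and 52.3 CPM, a log2 difference of -2.03 ± 0.39 (adjusted p = 8.80e-05). Col2a1, at 3.74 and 17.0 CPM against 99.3 and 293 CPM, differed by -4.18 ± 0.44 (adjusted p = 2.28e-10). Col6a1 had 0 and 1.55 CPM against 17.2 and 15.3 CPM, and Col15a1 20.6 and 35.5 CPM against 1.32 and 0 CPM, so their fitted differences of -4.09 ± 1.12 and 5.10 ± 1.12 depend on the smallest counts. Summed over the libraries, the ratios were 19.2 (counting interval 3.14 to 788) for Col6a1 and 44.3 (7.43 to 1800) for Col15a1. Col1a1, Col1a2 and Col3a1 were not called (adjusted p = 0.0562, 0.418 and 0.685), and the replicate 2 levels of all 3 include the single cell named above, which held 40 of 48 Col1a2 and 18 of 49 Col3a1 UMIs. Col18a1, Col23a1, Col2a1, Col4a1 and Col4a2 kept their direction and call under every alternative in which each was tested.

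Over all genes tested 12.8% were higher and 11.9% lower. Of 11 basement membrane partners 5 were higher, led by the linker Nid1 (3.63 ± 0.29) and the proteoglycan gene Hspg2 (2.83 ± 0.33), and Lama5 was lower. Among 5 receptors Itga1, Itga2 and Itgb1 were higher and Ddr1 lower (-4.51 ± 0.64). In cleavage and crosslinking 3 of 5 were lower, Pcolce by -3.76 ± 0.35. Of 17 genes of modification and folding 5 were higher and 3 lower, including Plod2 (-1.63 ± 0.26). Fn1 (2.33 ± 0.18) and Bgn (8.23 ± 1.10) led 3 of 10 matrix proteins that were higher, and 3 of 9 breakdown genes were higher, Mmp2 by 2.96 ± 0.29. The SE of Bgn is close to those of Col6a1 and Col15a1. Its levels by class are not given, so the size of its difference is not read here. Cardiomyocyte markers summed to 228 and 232 CPM in endocardial or endothelial-like cells. Epicardial markers summed to 15.0 and 13.9 CPM there against 324 and 259 CPM in cardiomyocyte-like cells, and mesenchyme markers to 82.3 and 68.0 against 188 and 145 CPM. Their part in the lower collagens was not tested. The count of collagens was 9 with DESeq2, 8 with doublet-scored cells kept and 6 with thinned cells.

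**Figure D4:**
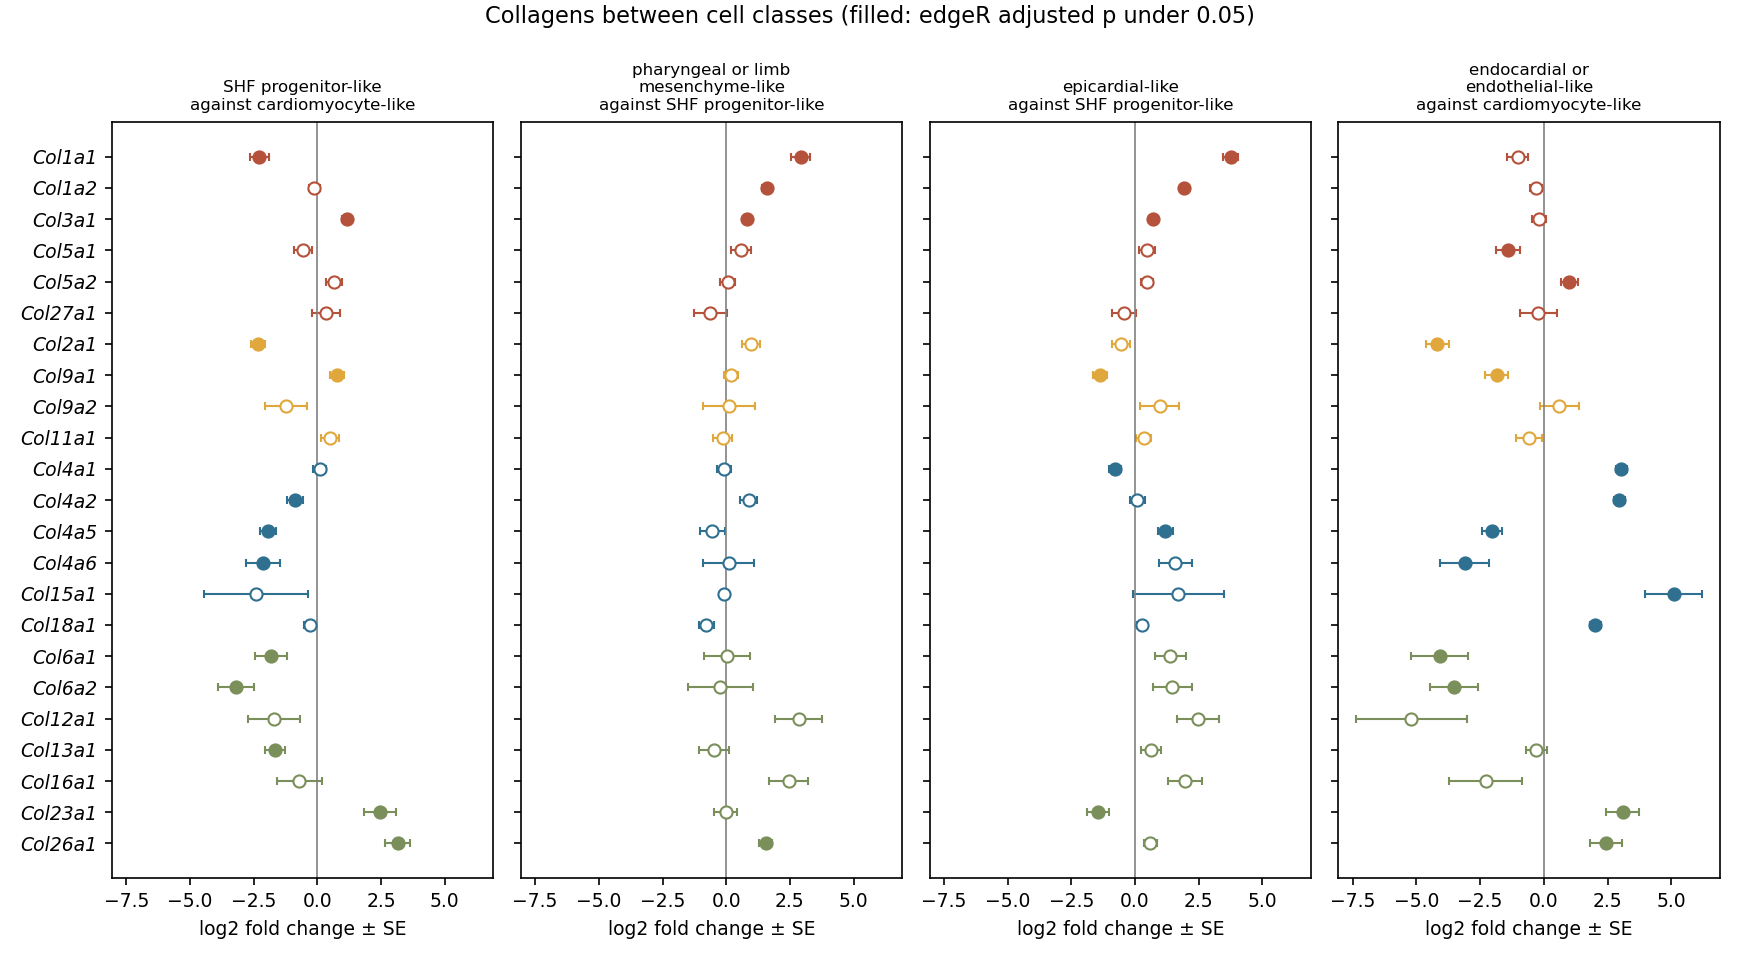
Log2 fold change with its standard error (horizontal axis) of the 23 collagens tested (vertical axis) in 4 comparisons of cell classes, coloured by group as in the bar chart of shares, with filled points where the adjusted p was under 0.05. Col1a1 lies far to the right in both comparisons of mesenchyme-like or epicardial-like with SHF progenitor-like cells, at 2.92 and 3.76, and Col4a1 and Col4a2 lie opposite to Col4a5 and Col4a6 in endocardial or endothelial-like against cardiomyocyte-like cells. Col15a1 has no error bar for pharyngeal or limb mesenchyme-like against SHF progenitor-like cells, both at 0 UMIs.

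The first 3 comparisons share the SHF progenitor-like cells and the first and last share the cardiomyocyte-like cells, so their values are not independent.  Of 135 pairs of class and collagen with at least 20 UMIs, the ratio of the libraries had an interval holding 1 in 98, lay higher in replicate 2 in 20 and higher in replicate 1 in 17. Col1a1 in epicardial-like cells was among those that differed, at 2.33 (1.98 to 2.74) times the replicate 1 level in replicate 2.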

How the data were processed

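The authors deposited raw UMI counts, whole numbers with no normalization, as a gene by barcode matrix for 2 Drop-seq libraries of wild-type embryos. The submitters' processing notes name mm10 and Scanpy. How reads were aligned, counted by strand and assigned to barcodes is not given in the sources used here. In all, the 5000 barcodes of replicate 1 carried 11958912 UMIs, and the 7497 of replicate 2 carried 14131384.

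A barcode was kept from 400 detected genes upward if mitochondrial transcripts made 10% or less, which left 4038 and 4934. Scrublet's automatic threshold marked 0 and 1 cells, under 0.5%, so the cells with the top 5% of scores were removed, 174 and 191. Cells were clustered with scanpy 1.11.5 (2000 variable genes, 30 components, 20 neighbours, Leiden resolution 1) on a random set of 26055 genes that included the markers and left out collagens, their partner lists and mitochondrial, ribosomal protein, haemoglobin and sex-linked genes. Only the genes kept out of clustering were tested, so no tested gene formed a class. After the first clusters mixed epicardial and myocardial cells, 3 rules were added: genes in at least 3 cells, division of clusters with markers of 2 classes, and at least 20 cells in a named cluster. A class was named where at least 3 markers were raised at least 2-fold in at least 5% of its cells. A cluster stayed unnamed where another class had more markers among its leading genes. It also did where depth was low and no marker of its class was among them.

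Counts were summed per library and class (24 sums, 228704 to 1751227 UMIs) and tested with edgeR 4.0.16 (two-sided quasi-likelihood F test, filterByExpr, TMM, Benjamini-Hochberg over 5701 genes) in a model of class plus library that left 11 degrees of freedom. The library is a block because the class sums of 1 library come from the same embryos. The p-values rest on how class differences varied between only 2 libraries, and describe cell classes, not groups of animals. The test was checked on simulated data for 1 comparison. Changes were placed only in genes with many UMIs, with 1 common spread for all genes, so the check does not cover the sparser collagens. CPM values are UMIs per 1000000 UMIs of a class. Coordinates are from GENCODE M21 on GRCm38, in which 99.7% of the file's identifiers were found without the version and 93.3% with it. Promoters are from RefSeq (GRCm38.p6). Of the 44 genes, 15 overlap another gene on the same strand, and their reads cannot be told apart here. Shares of UMIs within a chain pair carry exact binomial intervals, and intervals cover counting error only.

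The members, groups, partner lists and markers were chosen with earlier results of these data known. Every member was named, those with at least 100 UMIs by class and the others by total, except Col6a2 and Col15a1, which passed the filter on low counts and are given by class, and each partner list by its counts and up to 4 members with the smallest adjusted p. The partner lists cover modification and folding, cleavage and crosslinking, collagen-binding matrix proteins, basement membrane partners, receptors and breakdown. Alternatives covered DESeq2 1.42.0, other size factors, filters, resolutions, doublets, gene sets for clustering, thinning, each library left out, erythroid-like sums left out, and the first clustering. The last 2 were chosen after seeing the data.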

Additional observations from a re-analysis of the deposited data

Results flagged for a closer look

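Collagen RNA was also present in cells that took no class name and in barcodes with too few UMIs to be counted as cells, none of which entered a comparison. Unnamed cluster 7, 256 cells whose leading genes include Notch2, Pdgfrb, Vcan and Ptch1, had the highest collagen share of any group, 0.331% of UMIs on average over both libraries, with 1087 and 902 CPM of Col3a1, 456 and 455 CPM of Col1a2 and 228 and 240 CPM of Col1a1. Unnamed cluster 9, 459 cells led by Grem1, Pgf, Fgf10 and Tcf21, had 0.111%, with Col26a1 as its leading collagen at 175 and 140 CPM and more Col9a2 than any named class, at 51.1 and 63.6 CPM. Unnamed cluster 24, 24 cells with raised Wt1, Upk3b, Upk1b and Bnc1 beside epithelial genes, had 0.146%, and 55 of its 119 collagen UMIs were Col18a1. Unnamed cluster 6, 489 cells led by genes of mitosis, had 0.0981%, and unnamed cluster 1, 1532 cells of low depth with no raised marker, had 0.0694%. Barcodes with 10 to 200 UMIs had collagen shares of 0.0574% in replicate 1 and 0.0739% in replicate 2. The erythroid-like share for comparison was 0.00453%.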

How the results depend on the processing

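Of 37 collagen calls in the 4 pair comparisons, 12 kept direction and call in every alternative in which the gene was tested. Over their 536 alternative values, 443 counted as the same, 75 kept the direction without the call, 12 moved within 1 library and 6 reversed. The 536 include values of 1 library alone, which have no test. The same means direction and call kept in a fit, or, for 1 library alone, direction kept with a value near the fitted one. Against 12 called for SHF progenitor-like against cardiomyocyte-like cells, there were 7 with doublets kept, 7 under the first clustering and 5 with thinned cells. Against 4 between mesenchyme-like and SHF progenitor-like cells, there were 8 with no filter, 7 with at least 800 genes and 7 under the first clustering. Against 7 between epicardial-like and SHF progenitor-like cells, there were 3 with DESeq2, 11 with at least 800 genes, 11 with no mitochondrial filter and 3 with thinned cells. Against 14 between endocardial or endothelial-like and cardiomyocyte-like cells, there were 9 with DESeq2, 8 with doublets kept and 6 with thinned cells. Thinning left 11 collagens tested, and 11 were higher in at least 1 class against 23. Collagens not tested in an alternative have no value in it. Without the replicate block the 4 counts were 8, 2, 2 and 11. With 1 library left out no test is possible, and the called collagens that kept their direction numbered 12 to 12, 4 to 4, 7 to 7, 14 to 14 and 23 to 23. The calls were made from these same libraries, so this outcome was nearly fixed in advance and is no sign of stability. The paraxial mesoderm-like share, 0.186%, ranged from 0.147% to 0.224% by library and was 0.241% at resolution 1.6, and the class was not formed at resolution 0.6 or under the first clustering. The epicardial-like share, 0.155%, ran from 0.0910% (doublets kept) to 0.176% (thinned cells).

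Reversed log2 values were, for SHF progenitor-like against cardiomyocyte-like cells, Col1a2 at 1.00 with another set of genes and 2.38 under the first clustering, and Col1a1 at 0.42 under the latter. Between epicardial-like and SHF progenitor-like cells, Col3a1 was at -1.40 (doublets kept), -1.15 (other set) and -0.33 (first clustering), and Col26a1 at -2.55, -1.76 and -1.30, and at -1.25 at resolution 0.6. There Col5a2 was at -0.89 with the other set, and Col4a1 at 0.055 and 0.012 with the other set and the first clustering. Between endocardial or endothelial-like and cardiomyocyte-like cells, the first clustering gave 1.26 for Col3a1 and 1.40 for Col1a2. The cause was not tested. Apart from Col6a2 and Col15a1, members under 100 UMIs were too shallow for a test.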
